A study of Mus musculus with 13 samples.

Results

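The genes of the core and linker histones were examined for binding of the glucocorticoid receptor (GR), a ligand-activated transcription factor, in mouse embryonic fibroblasts. Members were the genes whose symbol begins with Hist1h, Hist2h, Hist3h or Hist4h in the deposited peak lists, and the background was every such gene of the mouse gene table. The table held 70 of them, 67 protein-coding genes and 3 pseudogenes, and 36 had at least 1 of 48 peaks. All lists together held 24673 peaks under dexamethasone with lipopolysaccharide. The genes were selected on measured peaks, the same lists as described below, so counts of bound genes are given as a description and no test was run.

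GR binding was measured by sequencing of immunoprecipitated chromatin (ChIP-seq) with 1 antibody against the receptor. Fibroblasts from male C57BL/6 embryos of day 13.5 were grown for 7 days and then received 1 µM dexamethasone (Dex, a synthetic glucocorticoid) for 16 h, alone or with lipopolysaccharide (LPS, from the wall of bacteria) at 100 ng/µl for 3 h. The Dex+LPS libraries were 3 of GR wt/wt, 4 of GR Zn/Zn and 2 of GRKO/KO genotype, and the Dex libraries 2 of GR wt/wt and 2 of GR Zn/Zn genotype. GR Zn/Zn cells carry a mutated zinc finger in the DNA-binding domain of the receptor, and GRKO/KO cells lack it. Every group had received Dex, so no library shows the receptor without its ligand. Which embryos gave which library was not given in the sources used here.

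Peak lists hold positions and no height, score or read number, so the depth behind each list is unknown. For Dex+LPS the libraries of a genotype had been merged and peaks also found in knockout cells removed, which leaves 3 lists of 200 bp peaks with no spread between replicates: 18953 peaks specific to wild type, 3533 shared peaks and 2187 specific to the mutant. As peak lists give no RNA level, the fibroblast label could be checked only by counting marker genes with a peak. All 10 fibroblast markers had one, as did 3 of 8 macrophage, 5 of 6 endothelial and 3 of 4 epithelial markers. Of all protein-coding genes, 34.4% had one, a share near that of the macrophage markers. With endothelial and epithelial markers also above it, the count does not separate fibroblasts from these cells.

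Histones are the proteins around which DNA is wound. The core histones H2A, H2B, H3 and H4 form the nucleosome, and linker histones (H1) bind the DNA where it enters and leaves. Most of their genes are short, lack introns and lie in clusters, and they are transcribed mainly in S phase, when new DNA has to be packed. Their messenger RNAs end in a stem-loop in place of a poly(A) tail, and H2A and H2B genes often stand in divergent pairs that share a promoter.

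The 250 bases before the gene start are shown for 4 members, from RefSeq on GRCm38.p6, the assembly of mm10. Hist1h3b has the only peak that overlapped a histone gene start. Hist1h4h has the only mutant-specific peak upstream of the clustered histone gene it was given to. Hist1h2ah with Hist1h2bk is a divergent pair with a shared peak at each gene. Capitals mark the TATA box letters TATAAA, the CCAAT box or the octamer ATTTGCAT on either strand. The sequences run 5′ to 3′ on the gene's strand and end at the base before its start.
Hist1h3b, chr13:23752095-23752344, plus strand: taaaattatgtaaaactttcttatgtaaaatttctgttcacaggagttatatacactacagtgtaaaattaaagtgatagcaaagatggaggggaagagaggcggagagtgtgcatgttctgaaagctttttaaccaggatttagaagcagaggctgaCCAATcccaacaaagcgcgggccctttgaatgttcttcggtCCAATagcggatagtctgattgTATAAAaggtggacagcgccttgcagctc
Hist1h4h, chr13:23530794-23531043, plus strand: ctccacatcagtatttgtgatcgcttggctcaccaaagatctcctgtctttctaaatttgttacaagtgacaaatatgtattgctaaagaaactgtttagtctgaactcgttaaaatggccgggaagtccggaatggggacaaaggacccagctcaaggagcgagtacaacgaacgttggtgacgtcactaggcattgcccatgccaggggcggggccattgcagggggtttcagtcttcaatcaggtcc
Hist1h2ah, chr13:22035644-22035893, minus strand: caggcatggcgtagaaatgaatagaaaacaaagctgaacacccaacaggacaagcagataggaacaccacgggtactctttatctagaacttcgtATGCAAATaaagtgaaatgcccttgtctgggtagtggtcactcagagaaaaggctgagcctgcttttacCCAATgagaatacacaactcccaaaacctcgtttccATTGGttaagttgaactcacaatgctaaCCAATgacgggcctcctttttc
Hist1h2bk, chr13:22035571-22035820, plus strand: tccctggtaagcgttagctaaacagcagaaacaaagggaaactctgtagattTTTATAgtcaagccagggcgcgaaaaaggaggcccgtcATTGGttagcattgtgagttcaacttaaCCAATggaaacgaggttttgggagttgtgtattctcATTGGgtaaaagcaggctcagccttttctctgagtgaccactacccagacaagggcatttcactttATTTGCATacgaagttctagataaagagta

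In Hist1h3b the TATAAA began 29 bases before the start. The windows of Hist1h2ah and Hist1h2bk overlap on opposite strands, so the CCAAT of one reads as ATTGG in the other. The window of Hist1h4h held none of the marked letters.

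Under Dex+LPS, wild-type peaks at histone genes were shared with the mutant more often than wild-type peaks elsewhere. Their 48 peaks comprised 21 shared ones, 19 found in wild type alone (wild-type-specific) and 8 found in the mutant alone (mutant-specific). Of the 40 wild-type peaks 52.5% were shared (exact 95% interval 36.1 to 68.5%), against 15.7% of all 22486 wild-type peaks. Of the 29 mutant peaks 72.4% were shared (52.8 to 87.3%), against 61.8% of all 5720 mutant peaks, a value inside the interval. Intervals cover counting error only, and neighbouring histone peaks are not independent. Histone genes took 0.178% of all wild-type peaks and 0.507% of all mutant peaks.

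Counted over genes, 17 of the 70 had a wild-type-specific peak (24.3%; 30.6% of 21900 protein-coding genes), 20 a shared peak (28.6%; 9.37% of protein-coding genes) and 7 a mutant-specific peak (10%; 5.36% of protein-coding genes). A wild-type peak of either kind was found at 33 histone genes (47.1%; 33% of protein-coding genes), and a mutant peak at 24 (34.3%; 12.6% of protein-coding genes). A peak of any list was found at 36 histone genes (51.4%; 34.4% of protein-coding genes). The share with a wild-type-specific peak was thus below that of all genes, while that with a shared peak was above it. A shared peak was found at 20 of the 33 histone genes bound in wild type (60.6%; 28.4% of such protein-coding genes). Histone genes are short, with a median of 492 bp for the protein-coding members, and 61 of those 67 measured up to 1 kb. Among the other 1524 protein-coding genes of up to 1 kb, 1.05% had a shared peak, 3.54% a wild-type-specific one and 0.919% a mutant-specific one. These genes were chosen by length alone, and whether they are active in fibroblasts is unknown here.

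**Figure D1:**
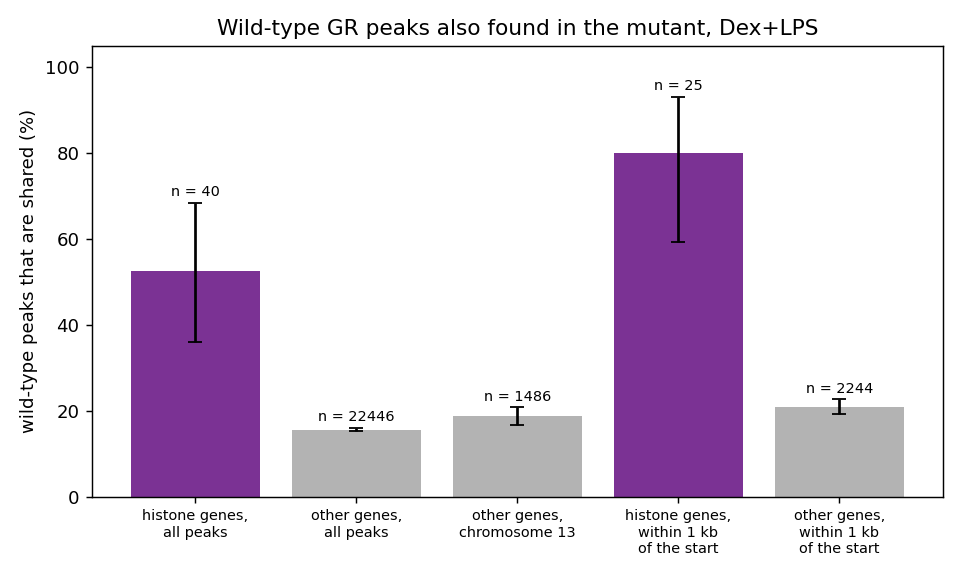
Bars give the percentage of wild-type Dex+LPS peaks that were also mutant peaks, with exact 95% intervals and the number of peaks as n; purple bars are histone genes and grey bars other genes. Histone genes stood at 52.5% over all peaks and 80% within 1 kb of the start, and the other genes at 15.6% over all peaks, 18.7% on chromosome 13 and 20.9% within 1 kb.

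Most histone genes lie on chromosome 13, which held 44 of the 48 peaks (20 shared, 17 wild-type-specific and 7 mutant-specific). Other wild-type peaks of that chromosome were shared in 18.7% of cases (278 of 1486; interval 16.8 to 20.8%). Within 1 kb of a start, 20 of 25 wild-type peaks of histone genes were shared (80%, interval 59.3 to 93.2%), against 470 of 2244 at other genes (20.9%, interval 19.3 to 22.7%). This limit of 1 kb was chosen after the data were seen, and the part of position in the shared percentage was not tested.

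Shared peaks lay over the gene bodies and their ends. Of the 21 shared peaks, 17 touched the histone gene named (81%; 47.9% of all shared peaks touched their gene), against 5 of 19 wild-type-specific peaks (26.3%; 49.8% of all) and 1 of 8 mutant-specific peaks (12.5%; 50.7% of all). The median distance from peak centre to gene start was 408.5 bp for shared, 1844.5 bp for wild-type-specific and 2174.5 bp for mutant-specific histone peaks. For peaks of other genes it was 37839.5, 42380.5 and 20895 bp in that order. From the gene end, the histone medians were 131.5, 1246.5 and 1079 bp in that order. Centres came after the gene start in 44 of the 48 histone peaks, and nearer to the end than to the start in 37. By the authors' position classes, 4 of the 48 were upstream of their gene. At other genes, 28% of shared, 26.7% of wild-type-specific and 22.7% of mutant-specific peaks were upstream. All 21 shared peaks had their centre after the start. Each peak was placed against 1 gene only. In dense clusters a peak downstream of that gene can lie upstream of a neighbour, as the shared peak of Hist1h2ag does for Hist1h4i. How far gene density and gene length shape these positions and distances was not tested.

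Gene ends were measured for all genes with a known strand. A gene end lay within 500 bp of the centre of 20 of the 21 shared histone peaks (95.2%; 1.78% of all shared peaks). The same held for 5 of 19 wild-type-specific (26.3%; 0.944% of all) and 1 of 8 mutant-specific histone peaks (12.5%; 2.51% of all). Of the 63 shared peaks near any gene end in the genome, histone genes supplied 31.7%. A gene as short as these puts an end within 500 bp of most of its own bases, so this count does not tell the end from the gene body. Gene starts lay within 500 bp of 13 of the 21 shared histone peaks, against 10.3% of all shared peaks. The same held for 4 of 19 wild-type-specific (against 6.72% of all) and 1 of 8 mutant-specific histone peaks (against 9.92% of all). By the authors' position classes, 8 of the 14 shared peaks that overlapped a gene end in any gene were at histone genes, with 2 of 40 for wild-type-specific and 1 of 9 for mutant-specific peaks.

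**Figure D2:**
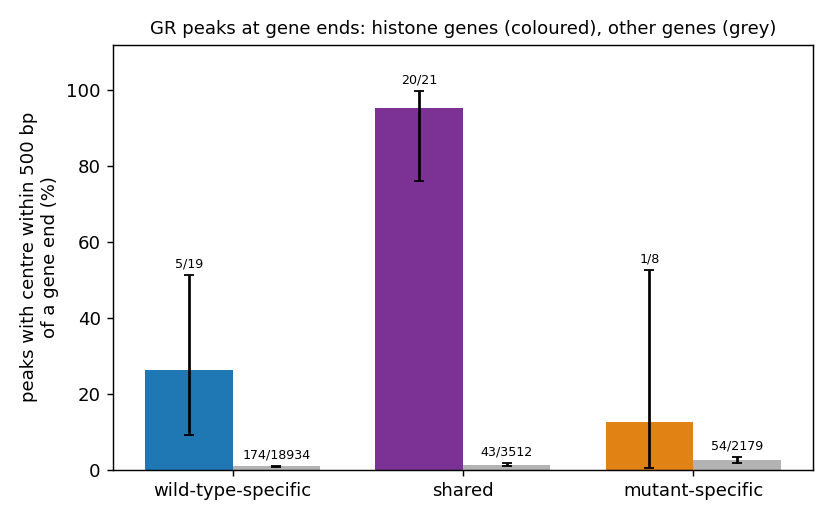
Bars give the percentage of peaks in each Dex+LPS list whose centre lay within 500 bp of a protein-coding gene's end, coloured for histone genes and grey for all others, with exact 95% intervals and counts above. The shared histone bar stands at 95.2% and its grey neighbour at 1.22%.

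**Figure D3:**
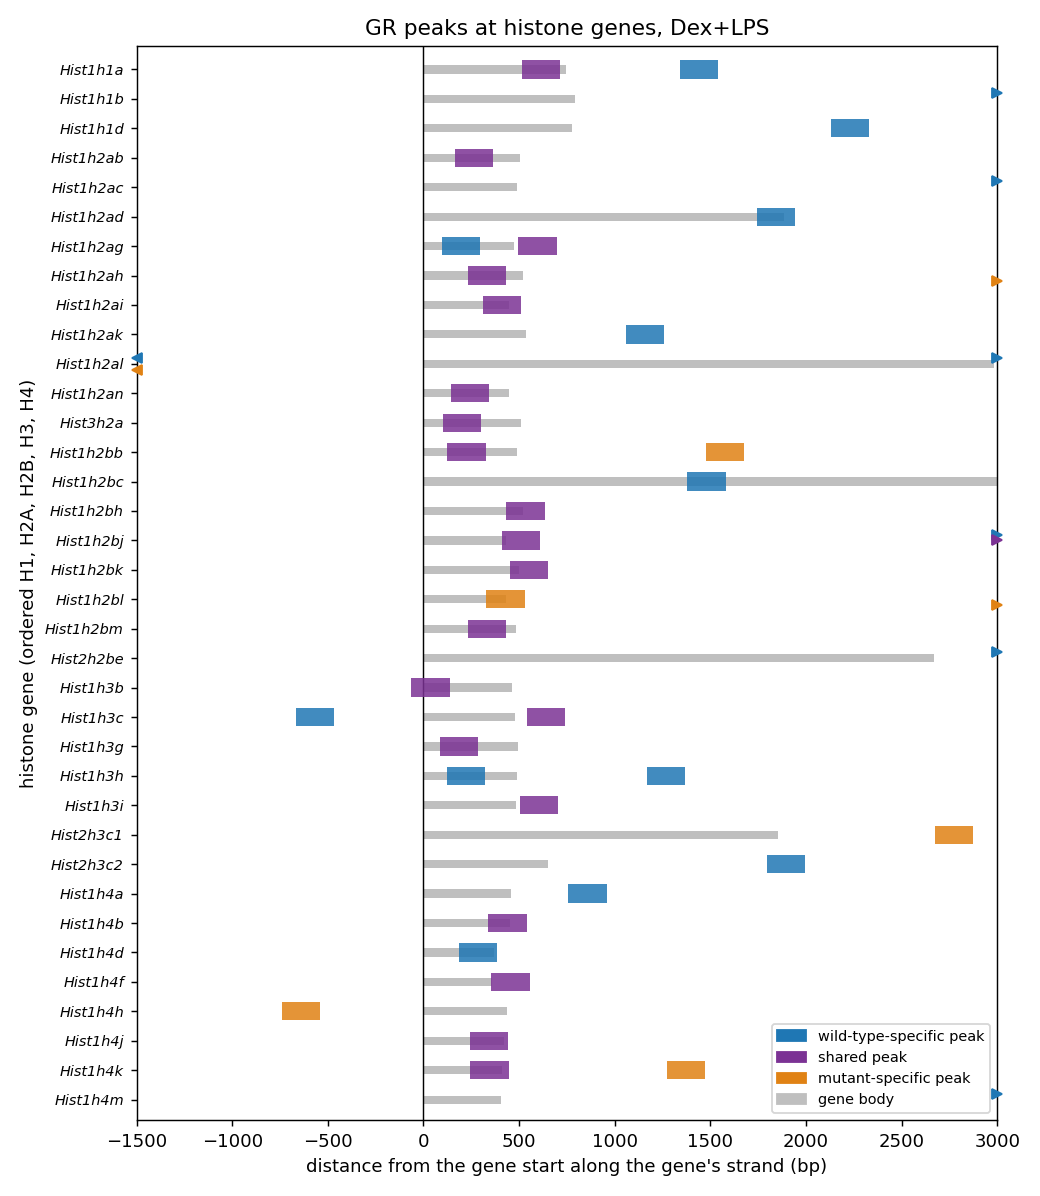
Each row is 1 of the 36 histone genes with a peak, drawn along its strand from the gene start at 0 (axis in bp); grey bars are gene bodies as the lists give them, coloured bars the 200 bp peaks. Arrowheads at the edges mark the 11 peaks outside the window, and purple (shared) bars cluster over the bodies and ends of the genes.

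Linker histone genes were bound in 3 of 6 cases (50%; 51.4% of all histone genes and 34.4% of protein-coding genes), with 1 shared peak, 3 wild-type-specific ones and no mutant-specific one. Hist1h1a had a shared peak inside the gene, 612 bp after its start (chromosome 13, 23764181 to 23764380), and a wild-type-specific peak 1438 bp after the start. Hist1h1b and Hist1h1d had a wild-type-specific peak downstream, 11737 and 2228 bp after the start. Hist1h1c and Hist1h1e, which encode widely expressed linker histones, had no peak.

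Of the H2A genes, 10 of 20 were bound, with 6 shared peaks, 6 wild-type-specific ones and 2 mutant-specific ones. H2A carries the acidic patch to which many chromatin proteins dock. Shared peaks lay inside Hist1h2an (21786876 to 21787075), Hist1h2ah (22035211 to 22035410) and Hist1h2ab (23751251 to 23751450), 242, 333 and 262 bp after the start. The shared peak of Hist1h2ai (21716721 to 21716920) overlapped the gene end, and that of Hist1h2ag (22042254 to 22042453) lay 25 bp beyond it. All of these are on chromosome 13. Hist3h2a on chromosome 11 had the only shared peak outside it, inside the gene and 199 bp after the start (58954785 to 58954984).

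Wild-type-specific peaks at H2A genes were mostly outside them. In Hist1h2ag such a peak lay inside the gene, 398 bp from the shared one, centre to centre. Hist1h2ak had one 1160 bp and Hist1h2ac one 23781 bp after the start. A peak named for Hist1h2ad overlapped the end of Hist1h3d in the gene table, since the lists give Hist1h2ad a longer span. The mutant-specific peak of Hist1h2ah (22029101 to 22029300) was 6443 bp after the start. Hist1h2al, a transcribed pseudogene apart from the clusters, was given 2 wild-type-specific peaks and 1 mutant-specific peak (51259147 to 51259346). These lay at 4706, -96132 and -56180 bp from its start, so its name marks the nearest listed gene only.

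H2B genes, whose product is ubiquitinated during transcription, were bound in 8 of 19 cases, with 6 shared peaks, 3 wild-type-specific ones and 3 mutant-specific ones. Shared peaks overlapped the ends of Hist1h2bk (22036273 to 22036472), Hist1h2bj (22043642 to 22043841) and Hist1h2bh (23542812 to 23543011), all on chromosome 13. Hist1h2bm (21722276 to 21722475) and Hist1h2bb (23746859 to 23747058) had theirs inside the gene. The only shared histone peak farther than 1 kb from a start was a further one at Hist1h2bj (22050742 to 22050941), at 7612 bp. Hist1h2bl was the only histone gene whose body was touched by a mutant-specific peak: 1 overlapped its end (21715615 to 21715814), and another lay 5229 bp after its start (21710814 to 21711013). In Hist1h2bb the mutant-specific peak (23748209 to 23748408) lay 1350 bp from the shared one. Hist1h2bj, Hist1h2bc and Hist2h2be had 1 wild-type-specific peak each, at 4472, 1479 and 5866 bp after the start.

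Of the 12 H3 genes, whose products carry many of the best known histone marks on their tails, 7 were bound, with 4 shared peaks, 4 wild-type-specific ones and 1 mutant-specific one. Hist1h3b had a shared peak that overlapped its start (23752317 to 23752516) and covered the last 28 bases of the promoter window shown above. Hist1h3g had one inside the gene, 184 bp after the start (23535503 to 23535702). Those of Hist1h3i (21782695 to 21782894) and Hist1h3c (23744780 to 23744979) lay 21 and 63 bp beyond the gene end. Hist1h3c also had a wild-type-specific peak at -565 bp. In the clusters it was the only wild-type-specific peak upstream of the histone gene it was given to. Hist1h3h had 2 wild-type-specific peaks, 1 inside and 1 downstream, and no shared peak. On chromosome 3, Hist2h3c2 had a wild-type-specific peak 1895 bp after its start. Hist2h3c1 there had a mutant-specific one (96248172 to 96248371), 824 bp beyond the end.

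H4 genes were bound in 8 of 13 cases, with 4 shared peaks, 3 wild-type-specific ones and 2 mutant-specific ones. H4 is among the most conserved of proteins. All 4 shared peaks overlapped the end of the gene: those of Hist1h4j (21735275 to 21735474), Hist1h4k (21750109 to 21750308), Hist1h4f (23551089 to 23551288) and Hist1h4b (23757277 to 23757476). Their centres lay 340, 345, 455 and 439 bp after the start. Hist1h4k also had a mutant-specific peak 1373 bp after the start (21749080 to 21749279). Hist1h4h had only a mutant-specific peak, at -638 bp (23530306 to 23530505). Wild-type-specific peaks were found at the end of Hist1h4d and 857 and 4948 bp after the starts of Hist1h4a and Hist1h4m.

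Across the families the share of bound genes ran from 42.1% for H2B and 50% for H1 and H2A to 58.3% for H3 and 61.5% for H4, in groups of 6 to 20 genes. All histone genes together stood at 51.4% and protein-coding genes at 34.4%, and in groups of this size the families cannot be ranked. Of the 36 bound genes, 13 had only shared peaks, 12 only wild-type-specific ones and 3 only mutant-specific ones. Hist1h1a, Hist1h2ag, Hist1h2bj and Hist1h3c had wild-type-specific and shared peaks, Hist1h4k, Hist1h2ah and Hist1h2bb shared and mutant-specific ones, and Hist1h2al wild-type-specific and mutant-specific ones. Most bound genes (26) had 1 peak, 8 had 2, and Hist1h2bj and Hist1h2al had 3. A peak of another class lay within 2 kb of 15 of the 48 histone peaks, so the classes were intermingled at some genes.

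Among the 34 histone genes with no peak were Hist1h1t, Hist1h2aa and Hist1h2ba, known as testis histones and named here after their values were seen. From Hist1h2bp to Hist1h2br (21787483 to 21837530) 1 of 7 genes had a peak, Hist1h4m. Hist1h2bq and Hist1h2br there have identical 250-base promoter windows. They were the only pair of 1891 with at least 80% identity, compared position by position without alignment. Copies whose windows are shifted against each other would be missed by this comparison. Whether reads that match several copies were kept was not given in the sources used here, so a missing peak at near-identical copies is uncertain.

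By position, the histone genes formed 4 clusters of at least 3 genes. In both clusters of chromosome 13, shared and wild-type-specific peaks were denser than on the chromosome as a whole. The first cluster of chromosome 13 (21715711 to 22043658, 24 genes) held 10 shared peaks, 7 wild-type-specific ones and 7 mutant-specific ones. The second (23531044 to 23934913, 31 genes) held 9, 8 and 1. Shared peaks numbered 30.5 and 22.3 per Mb there, against 2.54 on chromosome 13 and 1.31 over all chromosomes. Wild-type-specific peaks numbered 21.3 and 19.8 per Mb against 10.4 on the chromosome. For mutant-specific peaks the values were 21.3 and 2.48 per Mb against 1.54, so the clusters were unlike each other in this class. The value of the second cluster rests on 1 peak. Of the 7 mutant-specific peaks in the first cluster, 3 were given to histone genes and 4 to other genes between its outer parts. In the cluster of chromosome 3 (96219885 to 96270192, 10 genes) there were 2 wild-type-specific peaks, no shared peak and 1 mutant-specific peak. The small cluster of chromosome 11 (58948911 to 58955192, 3 genes) held the shared peak of Hist3h2a and no other. A mutant-specific peak given to Trim17 (58955371 to 58955570) began just beyond its end. Hist4h4, the only member on chromosome 6, had no peak. It lies near the variant histone gene H2afj, whose peaks are given below.

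**Figure D4:**
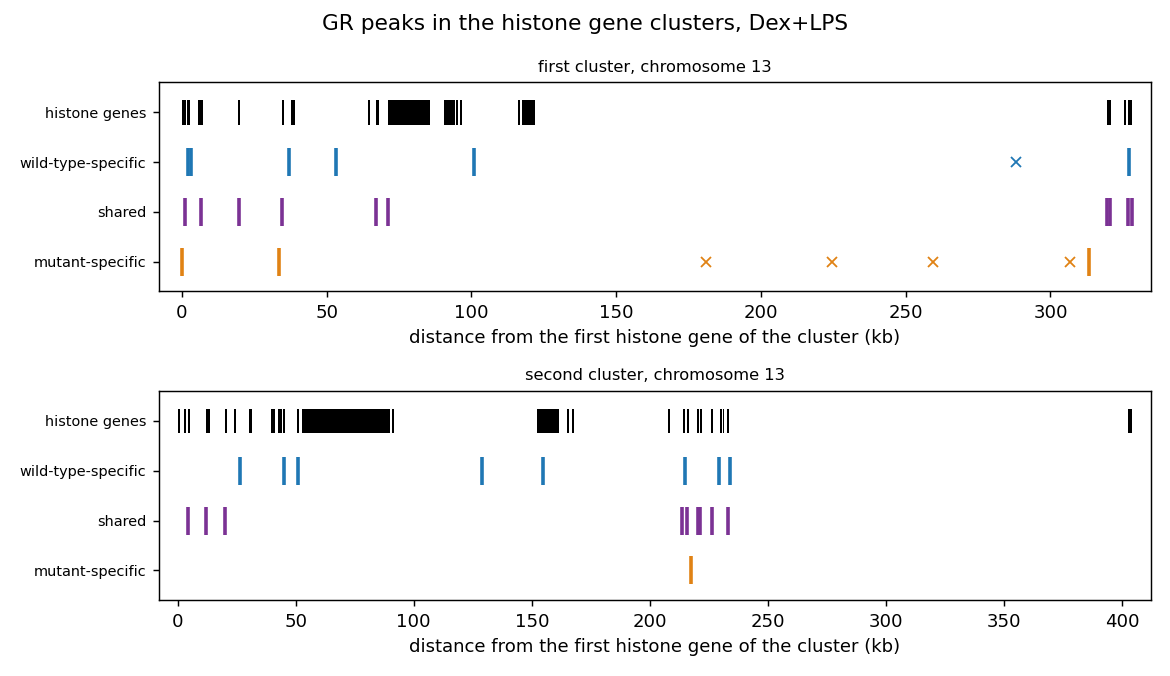
Both chromosome 13 clusters are drawn from their first histone gene (axis in kb), with histone genes as black bars and Dex+LPS peaks below them by class; vertical ticks are peaks given to a histone gene and crosses peaks given to another gene. Shared peaks fall where the histone genes are, and the 4 mutant-specific crosses lie in the stretch of the first cluster without histone genes.

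Promoter windows were available for 62 of the 70 genes and were compared with 32851 windows of all genes, each of the 250 bases before a start. CCAAT was found in 82.3% of the histone genes (33.8% of all windows) and TATAAA in 46.8% (12.4% of all windows). The octamer ATTTGCAT, bound by POU factors, was found in 22.6% (1.6% of all windows) and TTTCGCGC, an E2F site, in 11.3% (0.256% of all windows). AGAACA, only a part of a full GR binding site, was found in 14.5% (16.1% of all windows). The AP-1 motif TGANTCA was found in 4.84% (6.75% of all windows). The NF-kB motif, GGGA and CC set 4 bases apart, was found in 12.9% (17.6% of all windows). Both strands were searched, and CCAAT can lie within an NF-kB match. Genes with a shared peak had AGAACA in 4 of 20 windows and genes with no peak in 3 of 29. Only 1 peak of any class, that of Hist1h3b, reached into a histone promoter window, so these sequences are mostly not those under the peaks.

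Under Dex alone no histone gene had a peak in any of the 4 libraries. In wild type, 412 and 854 peaks were listed, which allows a share of up to 0.728 and 0.351%, and the mutant libraries 53 and 60, which allows up to 5.66 and 5%. Taken over all chromosomes, the Dex+LPS shares of 0.178 and 0.507% are below these limits, so such a share was not detectable in lists of this length. At those shares the wild-type lists would hold 0.733 and 1.52 histone peaks and the mutant lists 0.269 and 0.304. These numbers ignore how peaks were spread over chromosomes. On chromosome 13, where most histone genes lie, were 11.9 and 14.9% of the wild-type Dex peaks and 5.66 and 0% of the mutant ones. Among Dex+LPS peaks the figure was 6.46% (wild-type-specific), 8.43% (shared) and 8.28% (mutant-specific). The wild-type numbers may therefore be too low, and the absence of histone peaks was not tested against this excess. Of all protein-coding genes, a peak was found at 1.09 and 1.86% (wild type) and at 0.142 and 0.183% (mutant). No Dex peak fell inside a histone cluster, and the nearest lay 0.477 Mb away, beside the cluster of chromosome 11 in wild-type library 1. A comparison of treatments at these genes cannot be made from these lists.

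Genes that make or handle histones were counted in 3 lists. Of 25 genes for transcription and RNA processing of histone genes, 1 had a shared peak (4%; 9.37% of protein-coding genes), 5 a wild-type-specific one (20%; 30.6%) and 1 a mutant-specific one (4%; 5.36%). No class was above the share of all genes. Yy1, a zinc finger regulator of many promoters, had a shared peak at -881 bp from its start (upstream; chromosome 12, 108792330 to 108792529) and a wild-type-specific one farther upstream. Xrn2, a nuclease that helps end transcription, had a mutant-specific peak at -250 bp (chromosome 2, 147012711 to 147012910). Ccne1 (cyclin E1, which drives entry into S phase) had 3 wild-type-specific peaks, E2f1 and Eri1 2 each and Lsm11 1. Slbp, which binds the histone stem-loop, and Npat, the S-phase activator of histone genes, had no peak and are named here after their values were seen.

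Variant histones outside the clusters had wild-type-specific peaks at 6 of 18 matched genes (33.3%; 30.6% of protein-coding genes), shared peaks at 3 (16.7%; 9.37%) and no mutant-specific peak (5.36% of protein-coding genes). With 18 genes these counts are near those of all genes. H2afx, whose product marks DNA breaks, had a shared peak 111 bp after its start (chromosome 9, 44334727 to 44334926) and a wild-type-specific one at 919 bp. H2afj (chromosome 6, 136809081 to 136809280) and H1f0 (chromosome 15, 79029805 to 79030004), a linker histone of resting cells, had a shared peak inside the gene. H2afj also had a wild-type-specific peak downstream, 2844 bp after its start. H3f3a, H2afy, H2afy2 and H1foo had 1 wild-type-specific peak each, that of H3f3a at -191 bp from the start. Of 23 histone chaperones, 2 had a shared peak (8.7%; 9.37% of protein-coding genes), 7 a wild-type-specific one (30.4%; 30.6%) and 1 a mutant-specific one (4.35%; 5.36%), all close to the share of all genes. The shared ones were at Npm1 (326 bp after the start; chromosome 11, 33162780 to 33162979) and Cabin1 (chromosome 10, 75676996 to 75677195). Daxx, a chaperone of histone H3 variants, had the mutant-specific one, 619 bp after the start (chromosome 17, 33909964 to 33910163). Supt16 and Nap1l4 had 2 wild-type-specific peaks each, close to the start.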

How the data were processed

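GR ChIP-seq peak lists from 13 libraries were used as deposited by the authors: peak positions and distances to a gene, in base pairs. Build mm10 and the tools MACS2 2.1.0, BWA 0.7.13 and Picard 1.119 are named, with no role, in the submitters' processing notes. The authors merged the Dex+LPS libraries per the file names, with peaks found in knockout cells removed, and applied a false discovery rate threshold to the Dex lists. Each peak kept the gene the authors' annotation gave it, and the authors' distance equalled peak centre to gene start within 1 bp in 100% of merged peaks. Older symbols were matched to the gene table (GRCm38.p6) by gene ID, with 99.9% of IDs found. Overlap meant at least 1 bp. Gene ends used the 87.1% of protein-coding genes with a known strand, and a strand was known for 65 of the 70 histone genes. Clusters were split at gaps over 500 kb. Overlap and nearest-start searches were checked on simulated data. Shares have exact (Clopper-Pearson) 95% intervals. The limit for a count of 0 is 3 counts of the total. No test was run: members and lists were chosen with earlier results of these data known. Every histone gene with a peak was named, with coordinates for peaks of the mutant lists or at a gene start, and of the other lists every gene with a mutant peak and at most 4 others. Alternatives are given in the closing section. Scripts ran in Python 3.11.15 (scipy 1.17.1, pandas 2.3.3, numpy 2.4.6, matplotlib 3.10.9).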

Additional observations from a re-analysis of the deposited data

How the results depend on the processing

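Of 55 values recomputed, 36 stayed within 1.5 times the reported count or inside its interval and 19 did not. With genes and peaks taken by overlap with the gene span, wild-type-specific genes numbered 5 and peaks 5 (17 and 19 reported), and mutant-specific genes and peaks 1 each (7 and 8 reported), while 17 shared peaks remained of 21. Within 1 kb of the start, 5 wild-type-specific peaks at 5 genes and 2 mutant-specific peaks at 2 genes were left, and 80% of wild-type peaks were shared. Within 5 kb, mutant-specific peaks numbered 5. With each peak given to the nearest gene start of the gene table, mutant-specific peaks numbered 10 at 8 genes (8 and 7 reported). Chromosomes 10 to 14 were left out for their excess of wild-type Dex peaks, and most members lie there. Without them, wild-type-specific genes and peaks numbered 2, shared genes and peaks 0, mutant-specific genes and peaks 1, and the shared percentage was 0. With clusters split at gaps over 100 kb, they held 4 mutant-specific peaks (9 reported), because the stretch without histone genes then falls outside. On the gene's own strand the octamer was found in 11.3% of histone genes (0.791% of all windows), TTTCGCGC in 4.84% (0.137%) and AGAACA in 8.06% (8.58%), so each fell along with its background. The difference in histone peaks between Dex genotypes was 0 with all libraries and from 0 to 0 without each in turn. It could only be 0, as no Dex list held a histone peak, yet its recomputed values are among the 36. The overlap of Dex histone peaks with Dex+LPS peaks gave no value, as there were no such Dex peaks. No paired analysis was possible because the result comes from no test and the merged lists carry no replicates. Unknown depth limits every absence of a peak, and 4 mutant libraries stood against 3 wild-type libraries.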

Other observations

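Other genes in and around the histone clusters had 16 peaks inside the clusters or within 100 kb of them: 10 mutant-specific, 5 wild-type-specific and 1 shared. Of all 24673 Dex+LPS peaks, 2187 were mutant-specific, 18953 wild-type-specific and 3533 shared. Some of the 16 lay side by side at the same gene, so they are not independent. Inside the first cluster of chromosome 13, mutant-specific peaks were given to the microRNA gene Mir1983 (21896788 to 21896987), the zinc finger gene Zfp184 (21940221 to 21940420), Pom121l2 (21975045 to 21975244) and the serine protease gene Prss16 (22022326 to 22022525). Prss16 also had a wild-type-specific peak inside the gene. Before the first cluster, the olfactory receptor gene Olfr11 had a wild-type-specific peak downstream. Within 100 kb before the second cluster, mutant-specific peaks lay at C230035I16Rik (at -2051 and -5251 bp from the start) and downstream of Btn1a1, a butyrophilin gene. Beyond its other side, Carmil1, an actin regulator, had 2 wild-type-specific peaks and 1 shared peak inside the gene. On chromosome 11, 2 mutant-specific peaks were given to Trim17, a ubiquitin ligase gene. The nearer (58955371 to 58955570) had its centre 586 bp from that of the shared peak of Hist3h2a. It lay just beyond the end of Hist3h2a, so which gene it belongs to is uncertain. On chromosome 3 the splicing factor gene Sf3b4 had a wild-type-specific peak at -132 bp from its start. These positions were looked at after the data were seen.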
